A study of Mus musculus with 4 samples.

Results

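The cells described here belong to the osteoblast lineage of the mouse hindlimb and were chosen by RNA of 4 genes: Panx3, Adamts18, Fat3 and Lgr6. A cell was taken when its droplet barcode carried at least 500 genes, less than 10% mitochondrial UMIs (a UMI is the tag that counts 1 captured RNA molecule), at least 3 UMIs of the 4 genes together and less than 50 CP10k of the stromal chemokine Cxcl12, where CP10k is UMIs per 10000 UMIs of the cell. The rule took 1306 of the 2825 cells kept by the first 2 limits, 716 of 1399 cells in the immobilized pool and 590 of 1426 in the control pool.

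The working name of these cells, early osteoblasts that express Panx3 and Adamts18, did not hold for most of them. Fat3 supplied 89.7% of the UMIs of the 4 genes in immobilized members and 95.5% in control members. Fat3 alone brought in 285 members (39.8%) of the immobilized pool and 373 (63.2%) of the control pool, which had no UMI of the other 3 genes. A Panx3 UMI was found in 39.4% of immobilized and 16.4% of control members, and an Adamts18 UMI in 26.1% and 21.2%. Thinned to 2000 UMIs a cell, Panx3 was found in 15.2% of immobilized and 5.29% of control members, and Adamts18 in 12.8% and 9.22%. The members also held 152 immobilized and 311 control cells with at least 100 CP10k of osteocalcin RNA (Bglap plus Bglap2), the level of a matrix-producing osteoblast, and left only 10 immobilized and 18 control cells with that much osteocalcin outside. They are therefore called Fat3-rule members here, and the 241 members that met the limit of 3 UMIs from Panx3, Adamts18 and Lgr6 without Fat3 are called Panx3/Adamts18/Lgr6 cells.

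The immobilized group was 6 mice pooled into 1 sample, whose hindlimbs had been immobilized for 2 weeks from 8 weeks of age, so that they were 10 weeks old at harvest. The control group was 4 mice pooled into 1 sample, 10 weeks old and not immobilized. Both groups carried the same alleles on C57BL/6J: Tnfsf11tTA/+, in which the RANKL gene drives the doxycycline-repressed activator tTA from 1 allele, LC1, a Cre that tTA switches on, and Rosa26LSL-tdTomato, a red reporter that Cre switches on for good. Doxycycline was given in both from E0 to birth, so the reporter marks cells that expressed Tnfsf11 at some time after birth, and their descendants. Live CD45.2-Ter119-tdTomato+ cells from the marrow and enzyme-digested femurs and tibias of both limbs went into 10x 3′ v3.1 libraries. Each pool was run on 2 lanes that hold the same cells, and lane 2 was used only as a repeat. With 1 pool per group there is no spread between animals and no test of immobilized against control: every interval below covers counting error only, at the 95% level.

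Lane 1 held 9960011 UMIs over 1751 barcodes in the immobilized pool and 10732720 UMIs over 1620 barcodes in the control pool. The median member had 7621 UMIs in the immobilized pool and 9266.5 in the control pool. The pools shared 3 barcodes. Of the members of lane 1, 683 (95.4%) of the immobilized pool and 573 (97.1%) of the control pool were members again in lane 2. The median mitochondrial share was 5.64% in immobilized and 4.88% in control members, and barcodes removed by the mitochondrial limit numbered 217 and 99, of which 95 (43.8%) and 56 (56.6%) met the UMI rule. The tdTomato transcript, which the sort selected on, was at 92.4 CPM (100 times CP10k, taken over the summed cells) in immobilized and 82.0 CPM in control members and was seen in 44.1% and 44.7% of them.

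Osteoblasts form from marrow stromal precursors under the transcription factors Runx2 and Sp7. Type I collagen and alkaline phosphatase are switched on early in this course and osteocalcin late, as the matrix mineralizes. Panx3 encodes a channel of the pannexin family that passes ATP and calcium in osteoblasts and cartilage cells. Adamts18 encodes a secreted metalloprotease, Fat3 a giant atypical cadherin, and Lgr6 a receptor for R-spondins, which raise the sensitivity of a cell to Wnt ligands. Unloading of the limb is known to lower bone formation and to raise bone resorption, for which RANKL, the product of Tnfsf11, is the required signal.

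Of the 4 genes of the rule, Panx3 lies on chromosome 9 at chr9:37659902-37669235, Adamts18 at chr8:113697126-113848738, Fat3 at chr9:15910189-16501285 and Lgr6 at chr1:134983301-135105276, all on the minus strand of GRCm38. Stretches of 250 bases before a start site are shown because their genes mark the ends and the middle of the range that the members cover: Mmp13 (collagenase 3) for the members with little osteocalcin, Bglap for those with much of it, and Adamts18 for the rule. They come from RefSeq on GRCm38.p6 and read 5′ to 3′ on the gene's own strand, with the last base just before the start site. Capitals mark ACCACA or its complement TGTGGT, the core letters bound by Runx factors, searched on both strands.
Mmp13: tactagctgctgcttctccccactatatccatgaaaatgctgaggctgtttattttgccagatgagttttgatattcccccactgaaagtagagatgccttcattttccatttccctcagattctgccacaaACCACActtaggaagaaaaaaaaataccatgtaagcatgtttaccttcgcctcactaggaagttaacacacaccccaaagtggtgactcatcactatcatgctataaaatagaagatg
Bglap: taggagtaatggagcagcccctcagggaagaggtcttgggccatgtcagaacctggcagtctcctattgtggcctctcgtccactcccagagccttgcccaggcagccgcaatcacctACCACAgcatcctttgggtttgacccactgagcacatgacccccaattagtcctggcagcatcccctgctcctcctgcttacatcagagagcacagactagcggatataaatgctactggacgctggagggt
Adamts18: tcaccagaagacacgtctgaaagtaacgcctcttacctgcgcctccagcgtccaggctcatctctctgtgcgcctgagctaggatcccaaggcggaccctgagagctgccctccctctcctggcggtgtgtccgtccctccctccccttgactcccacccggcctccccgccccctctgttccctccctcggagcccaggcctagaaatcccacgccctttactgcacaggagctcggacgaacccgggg
The Mmp13 stretch (chr9:7272264-7272513, plus strand) held 1 match that began 118 bases before the start, and the Bglap stretch (chr3:88384467-88384716, minus strand) held 1 that began 132 bases before it. The Adamts18 stretch (chr8:113848840-113849089, minus strand) held 0, as did those of Fat3 and Lgr6. Of 32851 RefSeq stretches of this length, 4614 (14.0%) held at least 1 match. A match describes letters and is not a measured binding site.

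Fat3-rule members were a larger share of the kept cells in the immobilized pool, 51.2% (exact binomial interval 48.5 to 53.8%), than in the control pool, 41.4% (38.8 to 44.0%). With every cell thinned to 2000 UMIs, the rule took 36.0% of immobilized and 27.5% of control cells. Panx3/Adamts18/Lgr6 cells were 170 (12.2%) in the immobilized pool and 71 (4.98%) in the control pool. Thinned, they were 2.40% and 0.599%, from 31 and 8 cells, so most of them did not reach the limit at that depth. Of these cells, 122 (71.8%) of the immobilized and 50 (70.4%) of the control pool were called again in lane 2. Those with exactly 3 UMIs of the 3 genes, 55 immobilized and 25 control cells, were called again in 47.3% and 52.0% of cases, and those with more in 83.5% and 80.4%. A further 100 immobilized and 49 control members had exactly 2.

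A few cells of another type met the UMI limit as well. Of the cells with at least 5 UMIs of leukocyte markers and little Cxcl12, which should lack the 4 genes, 1 of 30 in the immobilized pool (3.33%, interval 0.0844 to 17.2%) and 2 of 50 in the control pool (4.00%, 0.488 to 13.7%) met the UMI limit. Their median depth was 2757.5 and 3399.5 UMIs. Panx3 had 0 UMIs in them in both pools, whose exact Poisson interval reaches up to 40.8 CPM in the immobilized and 13.5 CPM in the control pool. A Fat3 UMI was found in 98.9% of immobilized and 99.5% of control members, against 10.0% and 6.00% of these cells, and all 5 Adamts18 UMIs of the immobilized ones were in 1 cell. Whether free RNA or doublets gave these UMIs was not tested. Just outside the limit, 36 immobilized and 25 control cells had exactly 2 UMIs of the 4 genes, and just inside, 37 and 18 had exactly 3. Across the limit Smpd3 had no common direction, at 385 CPM just inside against 282 CPM just outside in the immobilized pool. In the control pool it was at 379 CPM just inside against 484 CPM just outside. Bglap was higher just inside, at 3241 against 2424 CPM in the immobilized and 22943 against 14365 CPM in the control pool. Sp7 was at 113 CPM just inside against 152 CPM just outside in the immobilized pool, and at 153 against 188 CPM in the control pool. These levels come from few cells and were given no interval, so no direction is read from Sp7.

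The members spanned the osteoblast range from stroma-like to matrix-producing cells. For description they were split by counts, after the values were seen, into Panx3/Adamts18/Lgr6 cells, osteocalcin-high members (100 CP10k or more), osteocalcin-low members with at least 5 UMIs of the stromal genes Wif1, Limch1 and Tnc, and the other osteocalcin-low members. These are ranges, not cell types. Osteocalcin-high members were 140 (19.6%) of immobilized and 300 (50.8%) of control members. The members with Wif1, Limch1 and Tnc were 292 (40.8%) and 164 (27.8%), the Panx3/Adamts18/Lgr6 cells 170 (23.7%) and 71 (12.03%), and the others 114 (15.9%) and 55 (9.32%). Every comparison of all members between the pools is therefore also a comparison of these shares.

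**Figure D1:**
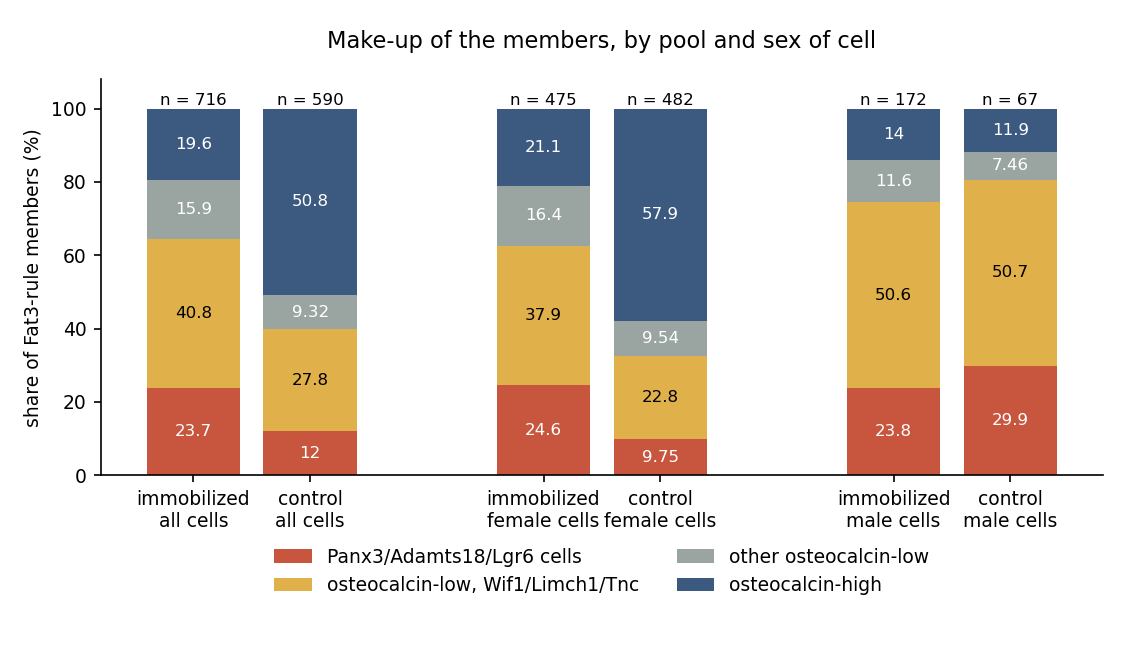
Shares of the 4 subsets among Fat3-rule members (y axis, percent of members), for all cells, female cells and male cells, with the immobilized pool left of the control pool in each pair. Osteocalcin-high members make up 19.6% of all immobilized and 50.8% of all control members, and 14.0% and 11.9% of male members.

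Type I collagen separated the subsets by level. Median Col1a1 was 1037 CP10k in immobilized and 1040 CP10k in control osteocalcin-high members, 847 and 832 CP10k in the other osteocalcin-low members, 239 and 231 CP10k in Panx3/Adamts18/Lgr6 cells, and 62.9 and 46.6 CP10k in members with Wif1, Limch1 and Tnc. Tnc, which encodes the matrix protein tenascin C, ran the other way, with medians of 38.1 and 32.7 CP10k in Panx3/Adamts18/Lgr6 cells and of 0 and 0 in osteocalcin-high members. Within each subset the pools were close in these 2 genes, while the subsets differed from each other by far more. Lepr, the marker of marrow reticular stroma, had a median of 0 in all subsets of both pools. The median of Cxcl12, which the rule itself caps, stayed between 0 and 1.74 CP10k. These medians do not show that reticular stroma RNA was absent. A list of 11 reticular stroma genes summed to 1564 CPM in immobilized and 1522 CPM in control members with Wif1, Limch1 and Tnc. It summed to 802 and 723 CPM in Panx3/Adamts18/Lgr6 cells, and to 118 and 183 CPM in osteocalcin-high members. In the other osteocalcin-low members it summed to 190 and 209 CPM.

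The genes of the working label behaved differently along osteocalcin. In the immobilized pool, Panx3 was at 163, 115, 55.7, 18.6 and 1.68 CPM in members with 0 to 5, 5 to 20, 20 to 100, 100 to 300 and over 300 CP10k of osteocalcin. In the control pool it was at 76.9, 64.0, 55.9, 10.3 and 5.43 CPM in the same bins. Panx3 was thus higher in members with little osteocalcin in both pools. Fat3 varied less, between 1449 and 2312 CPM over the bins of the immobilized pool and between 1473 and 2849 CPM in the control pool. Sp7, which encodes the osteoblast regulator osterix, was at 216 to 233 CPM in the immobilized pool and at 150 to 200.4 CPM in the control pool. Ccnd1, the G1 cyclin D1, was at 152 CPM in the lowest bin and 8.38 CPM in the highest in the immobilized pool, and at 189 and 12.7 CPM in the control pool. Mmp13 was at 3230 CPM in the lowest bin and 15.1 CPM in the highest in the immobilized pool, and at 5320 and 21.7 CPM in the control pool. The bins need not hold like cells in both pools, since cells of another type also differed in osteocalcin RNA: leukocytes carried a median of 2.55 CP10k of osteocalcin in the immobilized pool and 9.08 CP10k in the control pool.

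**Figure D2:**
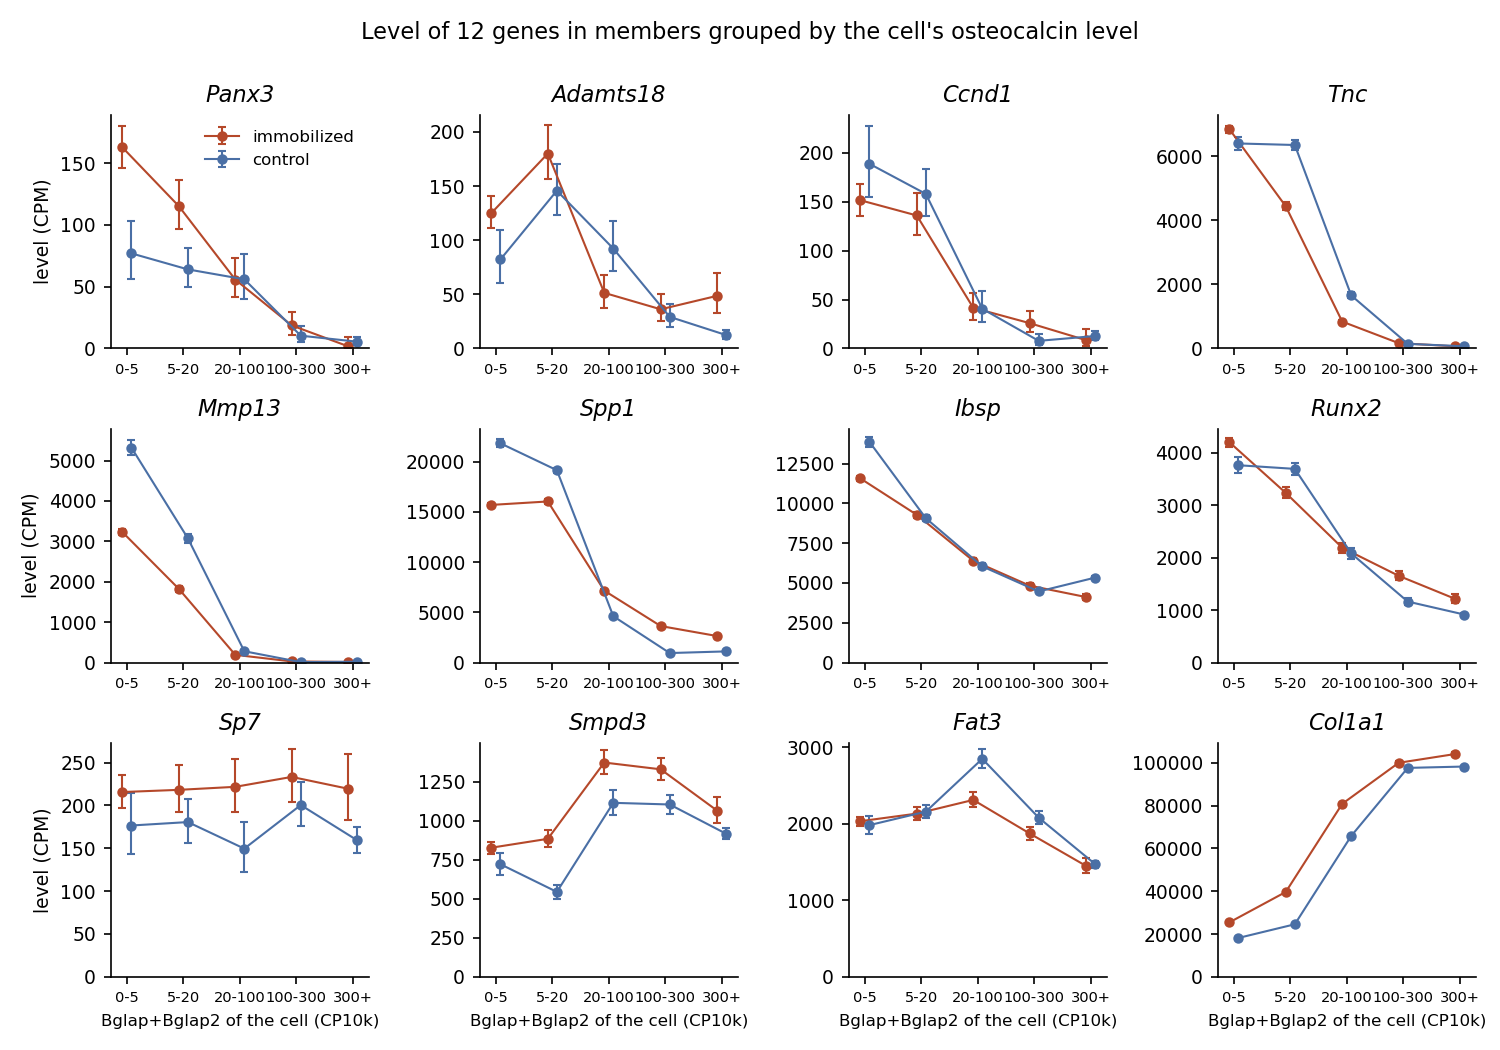
CPM (y axes) of 12 genes over 5 bins of osteocalcin (x axis, CP10k of Bglap plus Bglap2 per cell) in Fat3-rule members of the immobilized and control pools, with Poisson intervals for counting error. Panx3, Ccnd1, Tnc and Mmp13 lie lower in the bins with more osteocalcin in both pools, Col1a1 lies higher, and Fat3 and Sp7 vary less.

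The few osteocalcin-high cells outside the rule (28 cells, both pools joined) give little to compare with. Of 10731 genes with at least 50 UMIs on either side, 2584 (24.1%) were at least 2-fold higher and 515 (4.80%) at least 2-fold lower in members, and those cells held few UMIs, 32 of Fat3 among them. Fat3 was at 1956 CPM in members and 160 CPM in those cells, which the rule itself sets. Runx2 was at 2380 CPM in members and 684 CPM outside, Col1a1 at 66220 CPM and 103633 CPM, and Sp7 at 195 CPM and 250 CPM, a log2 ratio of -0.37 (interval -0.76 to 0.08). Smpd3, the sphingomyelinase needed for mineralization, was at 960 CPM and 774 CPM. So Sp7 and Smpd3 did not mark the members against these cells. Runx2 was higher in members, but the cells outside were all chosen with at least 100 CP10k of osteocalcin. Members at 100 to 300 and over 300 CP10k had less Runx2, at 1655 and 1216 CPM in the immobilized pool. In the control pool these bins held 1164 and 917 CPM. The Runx2 and Col1a1 differences therefore also reflect the osteocalcin cut.

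Compared with the osteocalcin-high members, Panx3/Adamts18/Lgr6 cells carried more RNA of Mmp13, tenascin C, periostin and osteopontin and less of type I collagen and osteocalcin. Of 7835 genes compared, 5892 (75.2%) were higher, 1158 (14.8%) at least 2-fold higher and 137 (1.75%) at least 2-fold lower in Panx3/Adamts18/Lgr6 cells, where the median gene had a log2 ratio of 0.37. Both sets were cut on counts of these cells, so the values that follow are a description with no test. Panx3, Adamts18, Lgr6 and osteocalcin differ by choice, and the cut shapes Fat3 too. Mmp13 was at 1689 CPM in Panx3/Adamts18/Lgr6 cells and 18.6 CPM in osteocalcin-high members, a log2 ratio of 6.50 (6.21 to 6.81), and Tnc at 4235 CPM and 84.3 CPM. Postn, which encodes the matrix protein periostin, had a log2 ratio of 4.23, and Spp1, which encodes osteopontin, one of 2.92.

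Among the genes that ranked highest were others of the matrix and of growth factor signals. Ccdc3, a secreted protein, had 0 UMIs in osteocalcin-high members and 93 in Panx3/Adamts18/Lgr6 cells, which makes it at least 70.5-fold higher against a floor of 3 UMIs over the group. Ccbe1 (7.72), a secreted factor known from lymphatic growth, Col8a1 (7.61), a short-chain collagen, Itga9 (6.56), an integrin that binds tenascin C, Ror1 (5.71), a Wnt5a receptor, Fgf7 (5.23), a fibroblast growth factor, and Loxl1 (5.00), a lysyl oxidase that cross-links elastin, followed on the log2 scale. Of the 8 compared genes of the Hedgehog and Notch list, 7 were higher and 4 at least 2-fold higher, against 75.2% and 14.8% of all genes. Ptch1, the Hedgehog receptor and target, was at 248 CPM and 20.2 CPM. Of 11 Wnt receptors and ligands without Lgr6, which the cut fixes, 10 were higher and 5 at least 2-fold higher, among them Lrp4, the sclerostin-binding coreceptor, at 728 CPM and 126 CPM. All 7 compared markers of the osteo-primed stroma were at least 2-fold higher.

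The genes that ranked lowest were Col15a1 (-3.41), a basement membrane collagen, Bglap2 (-2.92), Col2a1 (-2.90) and Bglap (-2.88). Of 19 bone matrix genes, 14 were lower and 9 at least 2-fold lower, against 24.8% and 1.75% of all genes. Col1a1 was at 43121 CPM in Panx3/Adamts18/Lgr6 cells and 100133 CPM in osteocalcin-high members. Of 21 immediate early and dissociation stress genes, 20 were lower and 8 at least 2-fold lower. Fat3 (0.41), Sp7 (0.34) and Smpd3 (0.02) were close to the median gene or below it. The Fat3 value is shaped by the cut, since osteocalcin-high members met the rule only with Fat3 UMIs. A Fat3 UMI was found in 100% of osteocalcin-high members, against 95.3% of immobilized and 95.8% of control Panx3/Adamts18/Lgr6 cells. Bglap and Bglap2 are neighbouring, nearly identical copies on chromosome 3, so how the UMIs fall between them is uncertain.

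**Figure D3:**
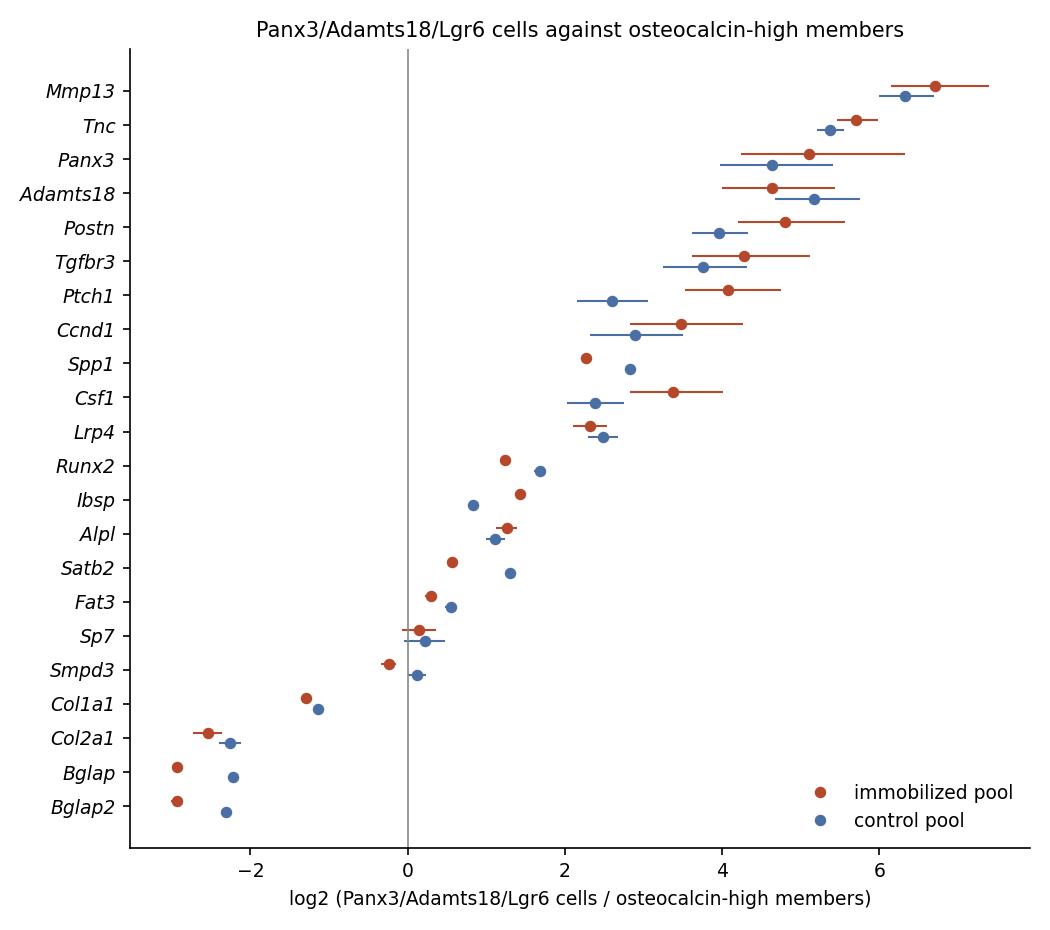
Log2 ratio of CPM in Panx3/Adamts18/Lgr6 cells over osteocalcin-high members (x axis) for 22 genes, separately in the immobilized and control pools, with intervals for counting error. Mmp13, Tnc and Panx3 are far above 0 in both pools, Fat3, Sp7 and Smpd3 are near 0, and Col1a1 and Bglap are below it.

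Against the members with Wif1, Limch1 and Tnc, the Panx3/Adamts18/Lgr6 cells differed in few genes. Of 8031 genes compared, 31 (0.386%) were at least 2-fold higher and 191 (2.38%) at least 2-fold lower. The highest included Adamts18 (3.26), Lgr6 (2.70), Panx3 (1.92) and Bglap (2.22), all of which the cuts fix, since only the Panx3/Adamts18/Lgr6 cells could hold osteocalcin-high cells. Without their 12 immobilized and 11 control cells of that kind, Bglap was lower in them, at -0.48. Ccn5 (-3.39), a secreted matricellular protein of the Wnt target class, Phactr1 (-3.10), an actin and phosphatase regulator, and Thsd7a (-2.73), a thrombospondin-domain membrane protein, were the lowest. Notch1 and Notch3, receptors of the Notch pathway, were among the 15 lowest as well.

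Few of the Panx3/Adamts18/Lgr6 cells held at least 3 UMIs of both Panx3 and Adamts18. Fat3 reached 3 UMIs in 154 of 170 immobilized and 64 of 71 control cells. At least 3 UMIs of Panx3 were held by 64 of 170 immobilized and 21 of 71 control cells, at least 3 of Adamts18 by 62 and 43, at least 3 of Lgr6 by 19 and 3, and at least 3 of both Panx3 and Adamts18 by 11 and 4. Over all members, 80 immobilized and 27 control cells had a UMI of both Panx3 and Adamts18, 202 and 70 had Panx3 without Adamts18, and 107 and 98 had Adamts18 without Panx3. At these low counts a gene without a UMI is not shown to be off.

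Between the pools, the genes of the rule did not move alike. In all members Panx3 was at 96.5 CPM (88.7 to 105) in the immobilized pool and 28.5 CPM (24.5 to 33.0) in the control pool, a log2 ratio of 1.76 (1.51 to 2.01). Lgr6 was at 32.4 and 8.28 CPM, or 1.96 (1.52 to 2.44) on the log2 scale, and Adamts18 at 102 and 53.5 CPM, or 0.93 (0.73 to 1.13) on the log2 scale. Fat3 was at 2011 and 1905 CPM, a log2 ratio of 0.08, which is below the median gene. The median of the 9420 genes compared in members was 0.22, so a log2 ratio is to be read against that shift, and Fat3 turns to the other side of 0 when the pools are scaled by the median ratio. Of these genes, 6675 (70.9%) were higher, 250 (2.65%) were at least 2-fold higher and 76 (0.807%) at least 2-fold lower in immobilized members. Since the rule used these 4 genes, their levels are a description.

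Inside the Panx3/Adamts18/Lgr6 cells the same genes differed less. Panx3 was at 234 CPM in immobilized and 141 CPM in control cells, a log2 ratio of 0.73 (0.41 to 1.06). Lgr6 was at 86.8 and 33.9 CPM, or 1.33 (0.73 to 2.03) on the log2 scale, and Adamts18 at 327 and 329 CPM, or -0.01 (-0.24 to 0.22) on the log2 scale. The cells were cut on the sum of these 3 genes, so their levels and shares here depend on one another and are a description. A Panx3 UMI was found in 72.9% of immobilized and 52.1% of control cells, and an Adamts18 UMI in 61.8% and 76.1%. Here 3117 (63.0%) of 4948 compared genes were higher, 97 (1.96%) at least 2-fold higher and 19 (0.384%) at least 2-fold lower, with a median gene at 0.11.

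The other genes of the label were close to the shift. In members Sp7 was at 220 CPM in the immobilized and 171 CPM in the control pool (0.37), and Smpd3 at 1031 and 894 CPM (0.21), which turns to the other side of 0 when the pools are scaled by the median ratio. In Panx3/Adamts18/Lgr6 cells Sp7 was at 254 and 199 CPM (0.35) and Smpd3 at 1071 and 1058 CPM (0.02). Ccnd1 stood further off, at 155 CPM in immobilized and 85.4 CPM in control Panx3/Adamts18/Lgr6 cells, a log2 ratio of 0.85 (0.45 to 1.28). Of 10 osteoblast transcription factors compared in members, 7 were higher, close to the 70.9% of all genes, 3 lower and 0 past 2-fold. Runx2 was at 2974 and 1825 CPM in members (0.70) but at 3527 and 3155 CPM in Panx3/Adamts18/Lgr6 cells (0.16), and Twist1, which restrains Runx2, was lower in both sets, at -0.68 and -0.76.

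**Figure D4:**
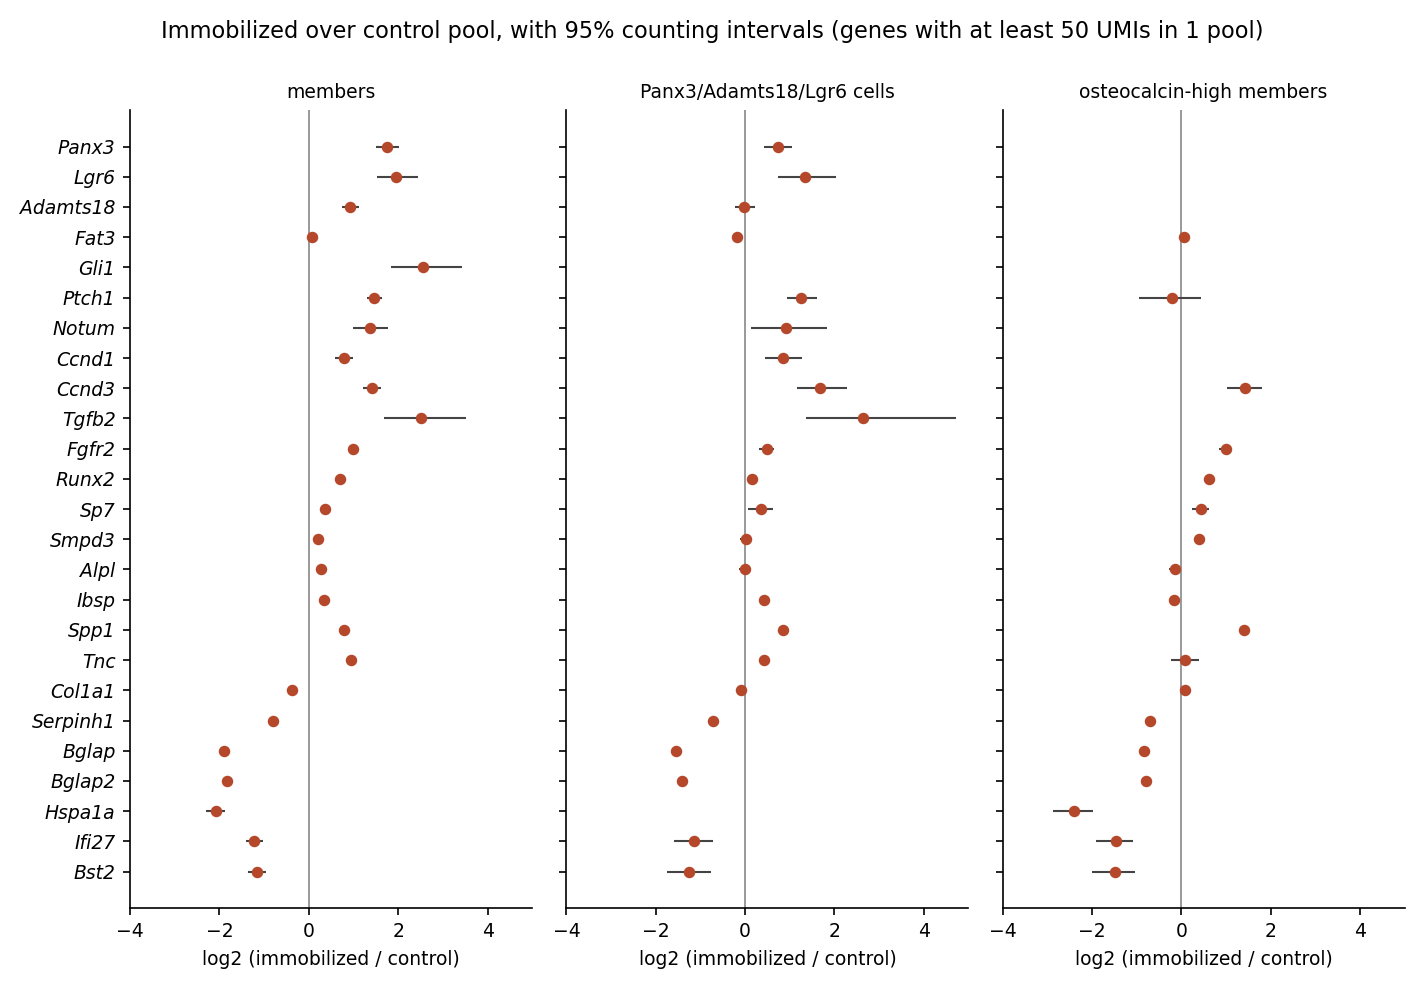
Log2 ratio of immobilized over control CPM (x axis) for 25 genes in Fat3-rule members, Panx3/Adamts18/Lgr6 cells and osteocalcin-high members, with intervals for counting error. Panx3 is at 1.76 in members and 0.73 in Panx3/Adamts18/Lgr6 cells, Bglap is below 0 in all 3 sets, and Fat3 is near 0.

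Of the osteocalcin genes, Bglap was at 6145 CPM in the immobilized and 22842 CPM in the control members, a log2 ratio of -1.89 (-1.91 to -1.88). In the osteocalcin-high members, where 66 (1.00%) of 6574 compared genes were at least 2-fold higher and 118 (1.79%) at least 2-fold lower, it was at 20246 and 35908 CPM (-0.83), and in Panx3/Adamts18/Lgr6 cells at 2661 and 7734 CPM (-1.54). There 12 of 170 immobilized and 11 of 71 control cells with 100 CP10k or more of osteocalcin held 83.1% and 89.5% of the Bglap UMIs, and without them Bglap was at 504 and 1048 CPM (-1.06, interval -1.22 to -0.90). Leukocytes carried 266 CPM of Bglap in the immobilized pool and 1785 CPM in the control pool, and the median osteocalcin of Panx3/Adamts18/Lgr6 cells was 3.60 and 12.9 CP10k beside 2.55 and 9.08 CP10k in leukocytes. The part of free RNA in the difference was not tested. Bglap2 followed Bglap, at -1.82 in members and -0.78 in osteocalcin-high members.

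Of 21 bone matrix genes compared in members, 8 were higher, 13 lower and 3 at least 2-fold lower in the immobilized pool. The 3 were Bglap, Bglap2 and Bglap3, and the median log2 ratio of the list was -0.27. Over all genes compared in members, 29.1% were lower and 0.807% at least 2-fold lower. Col1a1 was at 57188 CPM in immobilized and 74659 CPM in control members (-0.38), but within osteocalcin-high members at 103823 and 98760.5 CPM (0.07). Spp1 was at 11109 and 6422 CPM in members (0.79), at 12584 and 6968 CPM in Panx3/Adamts18/Lgr6 cells (0.85) and at 2609 and 981 CPM in osteocalcin-high members (1.41). In the members below 20 CP10k of osteocalcin Spp1 was instead lower in the immobilized pool, at 15690 and 16032 CPM in the 2 lowest bins against 21819 and 19144 CPM in the control pool. Leukocytes held 1096 and 355 CPM of Spp1. Ibsp, bone sialoprotein, was at 12277 and 9126 CPM in Panx3/Adamts18/Lgr6 cells (0.43). Alpl, the alkaline phosphatase that frees phosphate for mineral, was at 1069 and 1071 CPM in them, with counting intervals that overlap.

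Serpinh1, the collagen chaperone HSP47, was lower in every set: 1145 CPM in immobilized and 2001 CPM in control members (-0.80), 1093 and 1790 CPM in Panx3/Adamts18/Lgr6 cells (-0.71), and 1450 and 2341 CPM in osteocalcin-high members (-0.69). The genes of collagen folding and export, Serpinh1 included, had no common direction. In members 9 of 22 were higher and 13 lower, where 29.1% of all genes were lower, with 0 past 2-fold and a median of -0.05. Col2a1, the cartilage collagen, was at 444 CPM in immobilized and 1938 CPM in control members (-2.13), and its level was carried mostly by osteocalcin-high members, at 1075 and 2897 CPM. The chondrocyte markers summed to 496 and 1984 CPM in members, of which Col2a1 was the most; the other 8 summed to 52.0 and 45.2 CPM, with Ihh at 0 in both pools.

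Genes of the Hedgehog and Notch list were mostly higher in immobilized members. Of 12 genes of this list compared, 11 were higher and 4 at least 2-fold higher, with a median of 0.62. Over all genes compared in members, 70.9% were higher and 2.65% at least 2-fold higher. Gli1, the transcription factor and readout of the pathway, had 96 UMIs in immobilized and 17 UMIs in control members, a log2 ratio of 2.56 (1.84 to 3.43), and 40 and 2 UMIs in Panx3/Adamts18/Lgr6 cells. Ptch1 was at 186 CPM in immobilized and 67.2 CPM in control members (1.47), at 307 and 127 CPM in Panx3/Adamts18/Lgr6 cells (1.26, interval 0.94 to 1.60), but at 17.9 and 21.0 CPM in osteocalcin-high members (-0.21, interval -0.94 to 0.43). Gli2, an activator of the pathway, was higher in all 3 sets, at 1.36, 0.98 and 1.26. The Notch target Hes1 was lower in members, at -0.97, and in osteocalcin-high members, at -1.03.

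Lgr6 was left out of the Wnt receptors and ligands as a gene of the rule. Of 12 others compared in members, 11 were higher and 0 at least 2-fold higher, with a median of 0.57, where 70.9% of all genes were higher. In Panx3/Adamts18/Lgr6 cells 7 of 10 were higher, against 63.0% of all genes, with a median of 0.16. Lrp4 was at 622 CPM in immobilized and 321 CPM in control members (0.96) but at 767 and 645 CPM in Panx3/Adamts18/Lgr6 cells (0.25). Wnt targets were split, 5 higher and 5 lower in members. Notum, a feedback enzyme that removes the lipid of Wnt ligands, was at 32.9 and 12.7 CPM in members, or 1.36 (0.99 to 1.76) on the log2 scale, and at 0.91 in Panx3/Adamts18/Lgr6 cells.

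Of 24 BMP and TGF-beta genes compared in members, 19 were higher, 5 lower and 2 at least 2-fold higher, with a median of 0.24 that lies at that of all genes. The 2 highest were Tgfb2, a ligand, with 71 and 13 UMIs (2.50), and Tgfbr3, the coreceptor betaglycan, at 225 and 93.5 CPM (1.27). Bmp4, a ligand, was at least 2-fold lower, with 26 and 57 UMIs (-1.02). Tgfb2 UMIs came from 2.93% of immobilized and 1.86% of control members. Of 11 FGF and IGF genes, 10 were higher and 2 at least 2-fold higher, where 70.9% of all genes were higher and 2.65% at least 2-fold. Fgfr2, a receptor of osteoblast precursors, was at 812 and 408 CPM in members (0.99) and at 772 and 552 CPM in Panx3/Adamts18/Lgr6 cells (0.48). Of 17 secreted proteases and their inhibitors, 13 were higher, Adamts18 itself among them, and 2 at least 2-fold higher in members, and Adamts9, a proteoglycan-cleaving relative of Adamts18, was at 570 and 249 CPM (1.20). Mmp13 was at 1624 and 1049 CPM in members (0.63) but at 1747 and 1570 CPM in Panx3/Adamts18/Lgr6 cells (0.15, and -0.06 without the osteocalcin-high cells of the set).

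D-type cyclins differed between the pools in the Panx3/Adamts18/Lgr6 cells. There 6 of 7 genes of the G1 list were higher, 2 of them at least 2-fold, with a median of 0.85. Of all genes compared in these cells, 63.0% were higher and 1.96% at least 2-fold higher. Ccnd3 was at 140 CPM in immobilized and 43.4 CPM in control cells, a log2 ratio of 1.67 (1.15 to 2.28), Ccnd2 at 161 and 86.8 CPM (0.88), and Cdk6, the kinase they activate, at 48.3 and 19.0 CPM (1.31, but -0.57 in male cells). Genes of S and G2/M phase did not share this. In members 12 of 12 were higher, against 70.9% of all genes, with a median of 0.55. In Panx3/Adamts18/Lgr6 cells 3 of 4 were lower, against 37.0% of all genes. The proliferation marker Mki67 was seen in 10.0% of immobilized and 9.86% of control Panx3/Adamts18/Lgr6 cells. Ccnd3 was also higher in osteocalcin-high members, at 78.6 and 29.5 CPM (1.41). Ccnd1 was instead lower in the immobilized pool in the members with Wif1, Limch1 and Tnc, at 132 and 170 CPM (-0.36, interval -0.62 to -0.10), and in the 2 lowest bins of osteocalcin, at 152 and 136 CPM against 189 and 158 CPM.

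Stress and interferon genes were lower in the immobilized pool. Of 21 immediate early and dissociation stress genes compared in members, 20 were lower, against 29.1% of all genes, and 3 at least 2-fold lower, with a median of -0.59. Hspa1a, an inducible HSP70 chaperone, was at 38.0 CPM in immobilized and 161 CPM in control members, a log2 ratio of -2.08 (-2.29 to -1.87), and at 18.9 and 66.4 CPM in Panx3/Adamts18/Lgr6 cells (-1.80). In Panx3/Adamts18/Lgr6 cells, however, 11 of 16 of these genes were lower, against 37.0% of all genes, and the median was -0.11. There the AP-1 genes Fos (-0.12) and Jun (-0.04) were near level. All 6 compared interferon-induced genes were lower in members, 4 at least 2-fold, which 0.807% of all genes were. Ifi27, a membrane protein of mitochondria and nuclei, was at 53.0 and 124 CPM (-1.22), and Bst2, the tetherin that holds virus particles at the cell surface, at 45.0 and 100.3 CPM (-1.16); both were lower in Panx3/Adamts18/Lgr6 cells, at -1.15 and -1.25, and in osteocalcin-high members, at -1.47 and -1.49.

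**Figure D5:**
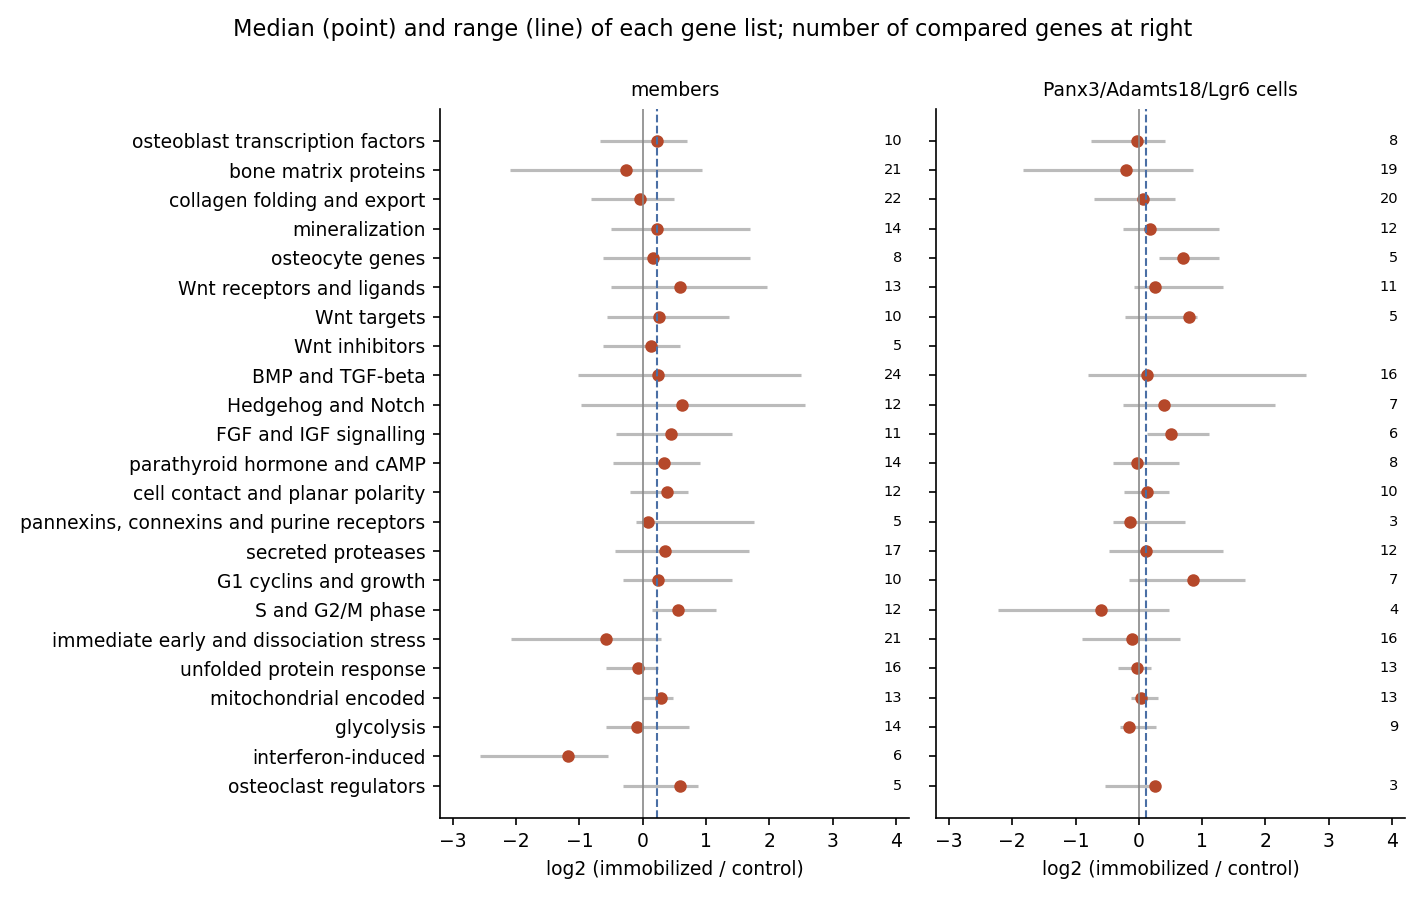
Median log2 ratio of immobilized over control (points) and the range over the genes compared (lines) for 23 gene lists (rows) in Fat3-rule members and Panx3/Adamts18/Lgr6 cells; the dashed line is the median of all compared genes. In members the Hedgehog and Notch list is at 0.62 and the interferon-induced list at -1.19.

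Among the genes that were ranked, the largest differences in members included several with no fixed list. Beside Gli1, Lgr6 and Panx3, the 12 highest included Ank2 (2.33), a membrane-skeleton anchor, Enpp2 (2.11), the enzyme autotaxin that makes lysophosphatidic acid, Car1 (1.96), a carbonic anhydrase, Btla (1.68), a receptor known from lymphocytes, Ccbe1 (1.60), Kazn (1.58), Syt6 (1.55), a synaptotagmin, and Nhsl2 (1.55). Btla was at 111 CPM in immobilized and 34.7 CPM in control members and was higher in osteocalcin-high members too (2.09). Car1 is not in the erythroid marker list, which holds its relative Car2. The erythroid markers summed to 107 CPM in immobilized and 74.4 CPM in control members. Whether the Car1 RNA came from blood cells was not tested. Among the 12 lowest, Ngp and Camp, granule genes of neutrophils, owed their rank to 1 control cell that held 770 of 790 Ngp UMIs and 785 of 849 Camp UMIs. Without the members rich in leukocyte RNA (4 immobilized, 1 control), Ngp stood at 2.05 and Camp at 0.98. The leukocyte markers summed to 170 CPM in immobilized and 736 CPM in control members, but to 163 and 67.7 CPM without those cells, and 122 immobilized and 31 control members had at least 3 UMIs of them.

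In Panx3/Adamts18/Lgr6 cells the 12 highest genes included Ubash3b (2.17), a phosphatase that damps tyrosine kinase signals, Megf10 (1.98), an engulfment receptor, Dlx6os1 (1.96), a transcript opposite Dlx6, Osmr (1.69), the oncostatin M receptor, Ccnd3 (1.67) and Ephb2 (1.66), an ephrin receptor. In that order, their control UMIs were only 5, 15, 7, 14, 32 and 9. In the members with Wif1, Limch1 and Tnc their log2 ratios were -0.16, -0.17, -0.02, 0.32, 0.75 and 0.17. Over all male members the ratios were -0.44, -0.72, -0.11, 0.44, -0.09 and 0.67. The 12 lowest included Col2a1 (-1.71, but 2.04 in male cells and -0.46 without the osteocalcin-high cells of the set), at 185 and 606 CPM, Omd (-1.56), the bone proteoglycan osteomodulin, at 33.9 and 100.3 CPM, Prss35 (-1.43), a serine protease homologue, and Pi15 (-1.26, but 1.02 in male cells), a secreted protease inhibitor. Whether the Dlx6os1 reads belong to it or to the opposite gene was not separable here.

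Tnfsf11 itself was scarce in these cells. It was at 14.3 CPM (84 UMIs) in immobilized and 7.80 CPM (49 UMIs) in control members, a log2 ratio of 0.87 (0.35 to 1.41), and had 28 and 5 UMIs in Panx3/Adamts18/Lgr6 cells and 0 and 2 UMIs in osteocalcin-high members. In the stromal cells of the same libraries that lay outside the rule, with at least 5 UMIs of Wif1, Limch1 and Tnc and less than 100 CP10k of osteocalcin, Tnfsf11 was at 188 and 101 CPM. Tnfrsf11b, which encodes the decoy receptor osteoprotegerin, was at 12.1 and 15.1 CPM in members, a log2 ratio of -0.32 whose interval (-0.79 to 0.14) holds 0.

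By Xist and Y-linked RNA, the make-up of the pools by sex was unequal: 60.1% of sexed cells were female in the immobilized pool and 72.4% in the control pool. Among members the female share was 73.4% and 87.8%, and among osteocalcin-high members 80.6% and 97.2%. Female cells were members in 475 of 707 (67.2%) immobilized and 482 of 873 (55.2%) control cases, and male cells in 172 of 469 (36.7%) and 67 of 332 (20.2%). Panx3/Adamts18/Lgr6 cells were 16.5% of immobilized and 5.38% of control female cells, but 8.74% and 6.02% of male cells. Osteocalcin-high members were 21.1% and 57.9% of female members, and 14.0% and 11.9% of male members, from 24 and 8 male cells.

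Some gene differences held in both sexes and others did not. Panx3, Lgr6 and Adamts18 are genes of the rule, so their values by sex are a description. Panx3 was higher in immobilized members of both sexes, with a log2 ratio of 1.94 in female cells and of 1.40 in male cells. Lgr6 followed at 2.11 and 1.36, in male cells from 47 immobilized and 7 control UMIs. Within Panx3/Adamts18/Lgr6 cells, Panx3 was at 0.60 in female and 1.68 in male cells, from 70 immobilized and 11 control UMIs, and Ptch1 at 1.09 and 1.40. Adamts18 in members was at 1.10 in female but -0.44 in male cells, Tnc at 1.17 and -0.27, Runx2 at 0.83 and -0.18, and Bglap at -2.04 and -0.33. Ccnd3 was at 1.81 in female and -0.09 in male members. Col2a1 was at -2.00 in female and 0.71 in male members. The Wnt receptors and ligands had a median of 0.56 in female members, Lgr6 included, and of -0.09 in male members, where Lgr6 was under the minimum of 50 UMIs, and the stress genes one of -0.04 in male members. The labels do not give the sex of the pooled mice, and a cell's animal is not known, so what sex adds was not tested.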

How the data were processed

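Lane 1 of each pool was analysed from the deposited 10x matrices, which hold raw UMI counts per gene and barcode; the authors made them with Cell Ranger 7.0.0 on mm10, per the submitters' processing notes and the file headers. The annotation release and the treatment of intronic reads are not given in the sources used here. Of 32286 features, 1 is tdTomato, and none was excluded from the total counts. The barcode limits were 500 genes or more and less than 10% of UMIs from mitochondrial genes. Counts were summed over the cells of a set and pool and divided by the set's total UMIs (CPM, 100 times CP10k). Log2 ratios add 0.5 UMIs to each count and are given for genes with at least 50 UMIs on 1 side or more; their intervals are exact conditional binomial, those of shares exact Clopper-Pearson and those of levels Poisson, all at 95% and for counting error only. No p-value was computed, since each group is 1 sample. A gene counts as past the fold when it is at least 2-fold higher or lower. Genes were ranked by log2 ratio, taking the 12 highest and 12 lowest between pools and the 15 highest and 15 lowest between sets. The text names some of them, beside members of the lists. A ranked gene was seen in at least 10% of cells on 1 side and had an interval without 0 on the log2 scale. It kept its sign in lane 2 and under median-ratio scaling, and between sets also in each pool alone. Mitochondrial, ribosomal, haemoglobin, immunoglobulin, Y-linked, Gm-named and Rik-named genes, Xist, Tsix and the leukocyte and erythroid marker genes were not ranked. Doublets were called with Scrublet (scanpy 1.11.5): 7 of 1751 immobilized and 26 of 1620 control barcodes, which were kept; 2 and 6 of them were members. The ratios were checked on simulated counts. Members and gene lists were chosen with earlier results of these data known, and the subsets of members were set after the values were seen. Gene positions are from GENCODE vM21 (GRCm38). Python 3.11.15, numpy 2.4.6, pandas 2.3.3 and scipy 1.17.1 were used.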

Additional observations from a re-analysis of the deposited data

Results flagged for a closer look

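In each of these results, female and male cells lay on opposite sides of 0 for immobilized against control; the difference between the sexes was not tested, since each group is 1 pool. The share of members that were osteocalcin-high differed by -36.8 percentage points in female and 2.01 points in male cells, of which 24 were osteocalcin-high in the immobilized and 8 in the control pool. In members, the log2 ratio of Adamts18, a gene of the rule, was 1.10 (counting interval 0.84 to 1.36) in female and -0.44 (-0.76 to -0.11) in male cells. That of Tnc was 1.17 (1.13 to 1.21) in female and -0.27 (-0.33 to -0.21) in male cells. That of Col2a1 was -2.00 (-2.07 to -1.93) in female and 0.71 (0.37 to 1.07) in male cells. That of Ngp was -3.45 in female and 3.74 in male cells, with 770 of its 790 control UMIs in 1 cell.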

How the results depend on the processing

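Each value is given first under the alternative named and then as reported. The immobilized share of members minus the control share was 5.30 points at under 5% mitochondrial UMIs, 16.5 in male cells and 1.58 among members and osteocalcin-high cells, against 9.80. For Panx3/Adamts18/Lgr6 cells it was 11.2 at 2 UMIs, 3.33 at 5, 2.71 without Panx3, 5.04 without Adamts18, 13.6 with both lanes summed, 1.80 thinned, 2.72 in male cells, 11.2 in female cells and 11.7 among members and osteocalcin-high cells, against 7.17. For osteocalcin-high members it was -39.3 at under 5% mitochondrial UMIs, -36.8 in female cells and 2.01 in male cells, against -31.3.

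Genes at least 2-fold higher in immobilized members numbered 472 at under 5% mitochondrial UMIs, 388 with lanes summed, 59 in male cells, 110 with median-ratio scaling, 766 and 140 at minimums of 10 and 100 UMIs, and 54 below 100 CP10k of osteocalcin, against 250. Those at least 2-fold lower numbered 118 with lanes summed, 10 in male cells, 154 with median-ratio scaling, and 305 and 46 at the minimums, against 76. In Panx3/Adamts18/Lgr6 cells the higher genes numbered 51 at 5 UMIs, 306 with lanes summed, 17 in male and 168 in female cells, and 671 and 25 at the minimums, against 97. The lower ones numbered 30 at 2 UMIs, 12 at 5, 46 with lanes summed, 31 in female cells, and 220 and 7 at the minimums, against 19.

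Genes lower in members than in the 28 cells outside numbered 1358 at 2 UMIs, 230 at 5, 279 with median-ratio scaling and 1288 in the immobilized pool, against 515. Against osteocalcin-high members, the higher genes numbered 358 thinned, 516 with median-ratio scaling and 684 in the immobilized pool, against 1158. The lower ones numbered 88 at 2 UMIs, 207 at 5, 77 thinned, 380 with median-ratio scaling and 70 in the immobilized pool, against 137.

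Ngp and Camp turned to 1.95 and 1.02 at 5 UMIs, to 3.74 and 0.38 in male cells, and to 2.05 and 0.98 without members rich in leukocyte RNA. In male cells alone the median of the 4 selection genes was -0.063, Ccnd3 -0.093, Isg15 0.17 and Col2a1 0.71 in members, and Cdk6 -0.57, Col2a1 2.04 and Pi15 1.02 in Panx3/Adamts18/Lgr6 cells. Of the values for single genes and lists, 2791 moved little, 618 moved and 13 that were at least 1 from 0 on the log2 scale turned; smaller values turned more often, and in male cells 88 of 116 gene values kept their sign. The causes were not tested. The alternatives for members were planned; those for the subsets of members, for members below the osteocalcin limit and without leukocyte RNA were added after seeing the data. The rule without Fat3 gave no value against the cells outside, since it moves members into them. At 3 UMIs or fewer per cell, depth limits which cells are recognised. No paired analysis was possible because each group is 1 pool and the lanes are repeat runs of it.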
